A study of Rattus norvegicus with 12 samples.

Results

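The 10 genes described here encode the transcription factor Nrf2 (*Nfe2l2*), its repressor Keap1 (*Keap1*) and 8 antioxidant enzymes or enzyme subunits (*Hmox1*, *Nqo1*, *Gclc*, *Gclm*, *Txnrd1*, *Srxn1*, *Sod1* and *Sod2*). They were chosen by name from the 37209 genes listed in the count table. RNA came from punches of the central amygdala (CeA) of 12 male, wild type Sprague Dawley rats aged 14 to 16 weeks, and 1 poly-A library was sequenced per rat. The 6 CIE rats (1 to 6) had been made dependent by chronic intermittent exposure to ethanol vapor and were killed directly after the last exposure, while the 6 Control rats (7 to 12) were handled alike but breathed air throughout. Groups follow the treatment label of each sample, since the titles of all 12 samples end in CIE. Both groups therefore share strain, sex, age, genotype and tissue, rats were housed in groups with the cages not given in the labels, and the rat numbers follow the groups, so that an effect of rat order cannot be told apart from CIE.

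Nrf2 is held in the cytoplasm by Keap1, which directs it to degradation. Oxidants and electrophiles modify Keap1, and the stabilized factor then enters the nucleus, pairs with small Maf proteins and binds antioxidant response elements (AREs) near genes for glutathione synthesis, thioredoxin recycling, quinone reduction and heme breakdown. Nrf2 is thus controlled mainly as a protein, and the mRNA of its targets is the usual readout of its activity, which in brain is strongest in astrocytes. Ethanol oxidation by CYP2E1 and catalase in brain is a recognized source of reactive oxygen species.

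The promoter sequences show where ARE-like letters lie in the genes measured. RefSeq windows from 250 bases before to 50 bases after the transcription start were given for 9 of the 10 genes (rat build GRCr8), all except *Hmox1*, and were searched on both strands for the ARE core TGACNNNGC and for the looser TGANNNNGC, which includes every match of the first. The core was present in 4 of the 9 genes, *Nfe2l2*, *Gclm*, *Txnrd1* and *Sod2*, and in 12.1% of 33469 windows over all genes. The looser form was also present in *Keap1*, *Nqo1* and *Srxn1*, which made 7 of 9 genes, and in 40.5% of all windows. A gene was counted when any of its windows held a match. The shares over all genes are by window (33469 windows of 27457 genes), so the 2 are not in the same unit. *Gclc* and *Sod1* held neither in this window. The matched letters are in capitals below, with flanking bases, each written 5′ to 3′ on the strand named. The first 4 are the matches to the core, followed by the 2 *Srxn1* matches with the letters TGAGTC, and the *Nqo1* match.
*Nfe2l2*, chr3:81028950-81028971, minus strand, matched bases 38 to 46 after the start: gactagccatTGACGCCGCctc
*Gclm*, chr2:213031953-213031981, minus strand, from -172 to -164 relative to the start: tggaagacaaTGACTAAGCagaaaccgca
*Txnrd1*, chr7:22755964-22755992, plus strand, from -78 to -70: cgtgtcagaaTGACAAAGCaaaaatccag
*Sod2*, chr1:50050185-50050213, plus strand, from -35 to -27: agctaggcgcTGACCCTGCcggcagcgcc
*Srxn1*, chr3:161064684-161064712, minus strand, from -118 to -110: ccagcgaggaTGAGTCGGCtctcagtggg
*Srxn1*, chr3:161064797-161064825, plus strand, from -5 to 3: aaactcacccTGAGTCAGCgacccgacgc
*Nqo1*, chr19:52220299-52220327, minus strand, from -50 to -42: atataaagccTGAAAGTGCtcagtacagc
A match of letters is a description of the window and not evidence of a binding site. The *Txnrd1* match lies at 1 of its 2 listed start sites, and the other held none. *Srxn1* was the gene with the most matches, since its window held a further TGANNNNGC on the minus strand a few bases upstream of the one printed next to the start.

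All 10 genes were detected in every rat and passed the filter on low counts, with raw counts from 176 (*Hmox1*) to 17547 (*Sod1*). Total counts per library lay between 39082548 and 95647601. Expression is given as CPM, the reads of a gene scaled to the size of its library with TMM normalization. None of the 10 genes differed between CIE and Control at a nominal p (not adjusted for the number of genes) below 0.05 in edgeR's quasi-likelihood test (two-sided), whereas 8.31% of the 20944 genes tested did. None of the 10 reached a false discovery rate (FDR, adjusted over all genes tested) of 5%, which 0.363% of all genes did, and none had groups without overlap, which 0.893% of all genes had. DESeq2 called 1 of the 10 genes (*Gclc*) at nominal p, beside 7.48% of all genes, and limma-voom with sample weights called 4 (*Gclc*, *Srxn1*, *Sod1* and *Sod2*), beside 17.2% of all genes. Neither tool called any of the 10 at 5% FDR, beside 1.41% of all genes with DESeq2 and 1.12% with limma-voom. The DESeq2 shares have another base, 29389 genes without edgeR's filter on low counts at nominal p and 20852 genes at FDR. The log2 fold changes of CIE against Control were positive for 6 genes and negative for 4, with a median of 0.02, beside 0.00 over all genes. The median size of the difference was 0.09, beside 0.11 over all genes. For 6 of the 10 genes (*Keap1*, *Hmox1*, *Gclc*, *Gclm*, *Txnrd1* and *Sod2*) the 95% confidence interval lay within 0.8 to 1.25-fold, and over all 10 genes the interval bounds ran from 0.752 to 1.48-fold.

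**Figure D1:**
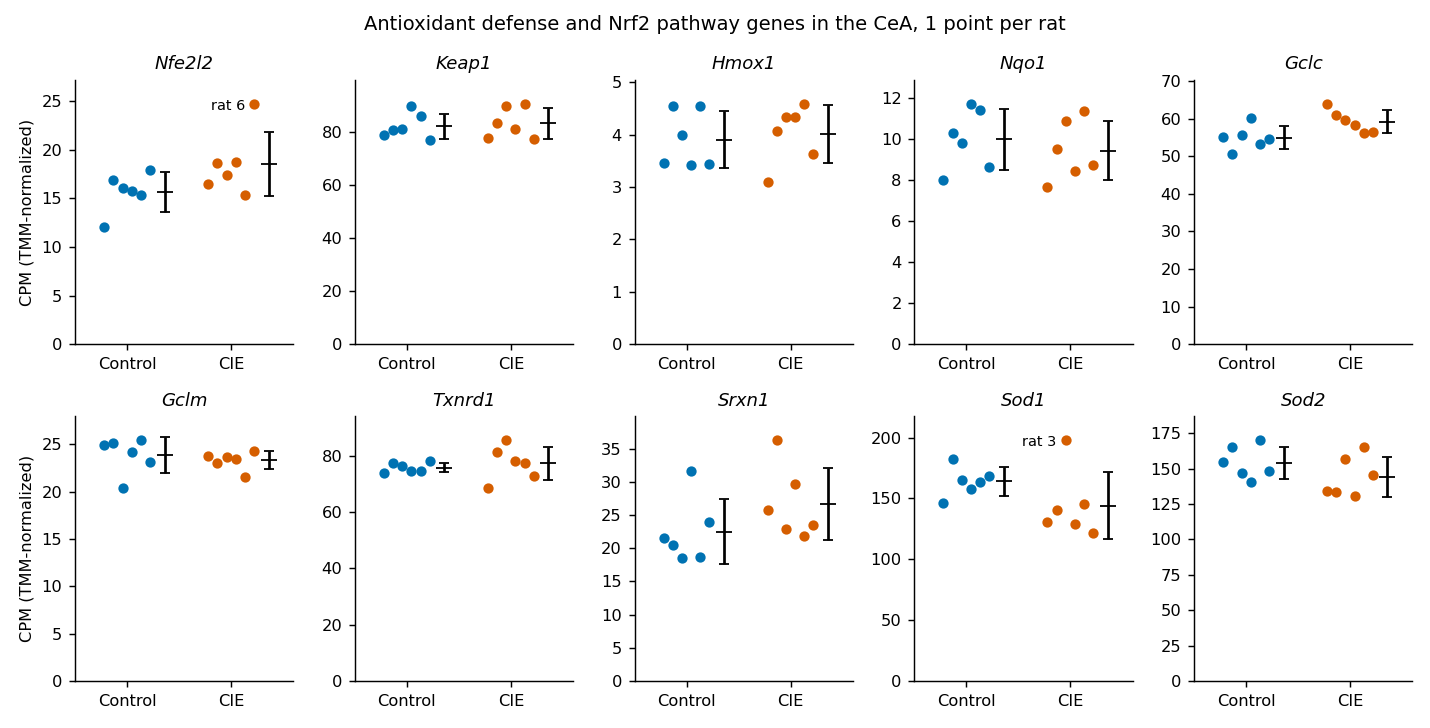
Expression of the 10 genes in each rat, as CPM with TMM normalization (y axis from 0, a separate scale per gene), with Control rats in blue and CIE rats in orange, and the mean ± SD of each group in black. The groups overlap for every gene, CIE rat 6 stands above the other rats for *Nfe2l2* (24.7 CPM), and CIE rat 3 stands above the other rats for *Sod1* (198 CPM) while the other 5 CIE rats lie below all Control rats.

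Among the regulators, *Nfe2l2*, which encodes Nrf2 itself, ranked first of the 10 genes in the edgeR test. Its expression was 15.3, 17.98 and 24.7 CPM (lowest, median and highest) in CIE rats and 12.02, 15.9 and 17.96 CPM in Control rats. The mean was 18.5 ± 3.29 CPM in CIE and 15.7 ± 2.02 CPM in Control (SD, n = 6 each), a log2 fold change of 0.24 with a standard error (SE) of 0.12 and a 95% interval of -0.01 to 0.50 (edgeR FDR = 0.627, exact permutation test on CPM, two-sided, p = 0.0758). In all, 5 of the 6 CIE rats were above the Control median and 3 were above every Control rat, and the highest value came from CIE rat 6. Without that rat the log2 fold change was 0.14 (edgeR FDR = 0.739). It passed nominal p at 0.27 (FDR = 0.749) without CIE rat 1, at 0.29 (FDR = 0.525) without CIE rat 5 and at 0.29 (FDR = 0.582) without Control rat 12. With all 12 rats and no covariate, no nominal call was made. With a score of myelinating oligodendrocyte markers as a covariate, the log2 fold change was 0.35 and passed nominal p (edgeR FDR = 0.425).

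*Keap1*, the adaptor that brings Nrf2 to its ubiquitin ligase, varied little among rats. It ranged from 77.3 to 90.8 CPM in CIE rats (median 82.3) and from 77.2 to 89.8 CPM in Control rats (median 81.1). The ranges nearly coincided, and the log2 fold change was 0.02 (SE 0.06, 95% interval -0.11 to 0.15, edgeR FDR = 0.958, exact permutation p = 0.701). The ratio of *Keap1* to *Nfe2l2* counts within each rat, which needs no scaling between libraries, was 4.55 in CIE and 5.29 in Control as geometric means. It differed by -0.22 on the log2 scale (SE 0.15), with 5 of 6 CIE rats below the Control median (exact permutation test, two-sided, p = 0.197, adjusted over 3 ratios p = 0.295). Without CIE rat 6, the highest rat for *Nfe2l2*, the difference was -0.11 (exact permutation test, adjusted p = 0.578).

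Glutathione synthesis starts with glutamate-cysteine ligase, built from a catalytic subunit (*Gclc*) and a modifier subunit (*Gclm*) that raises its efficiency. *Gclc* was 56.1, 59.0 and 64.0 CPM (lowest, median and highest) in CIE rats and 50.7, 54.8 and 60.1 CPM in Control rats. All 6 CIE rats were above the Control median and 2 (rats 1 and 2) were above every Control rat. Expression differed by 0.11 on the log2 scale (SE 0.06, 95% interval -0.01 to 0.23), or 1.08-fold (edgeR FDR = 0.639). The exact permutation test on CPM gave p = 0.0325 without adjustment, and the DESeq2 FDR was 0.507. *Gclc* passed edgeR's nominal p at 0.14 (FDR = 0.353) without Control rat 10, the highest Control rat, and at 0.13 (FDR = 0.523) without CIE rat 6.

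*Gclm* lay on the other side of zero. It was 21.6, 23.6 and 24.3 CPM in CIE rats and 20.4, 24.5 and 25.4 CPM in Control rats. No CIE rat was above the Control median, but Control rat 9 was the lowest of all 12 rats. The groups differed by -0.03 on the log2 scale (SE 0.06, 95% interval -0.17 to 0.10, edgeR FDR = 0.931, exact permutation p = 0.535). Within rats, the ratio of *Gclm* to *Gclc* counts ranged from 0.371 to 0.432 in CIE and from 0.367 to 0.495 in Control, with geometric means of 0.394 and 0.434. All 6 CIE rats had a ratio below the Control median. The difference was -0.14 on the log2 scale (SE 0.07), which did not pass the exact permutation test (two-sided, p = 0.0844, adjusted p = 0.253). With 6 rats per group, this test can give no p below 0.00216.

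The thioredoxin branch was represented by *Txnrd1*, cytosolic thioredoxin reductase, and *Srxn1*, sulfiredoxin, which repairs overoxidized peroxiredoxins. *Txnrd1* was 68.5, 78.0 and 85.5 CPM in CIE rats and 74.0, 75.5 and 78.2 CPM in Control rats. CIE rats lay on both sides of the Control rats, with 3 above and 2 below all of them. The coefficient of variation was 7.76% in CIE and 2.28% in Control, and this difference in spread was not tested. The log2 fold change was 0.03 (SE 0.06, 95% interval -0.10 to 0.15, edgeR FDR = 0.935, exact permutation p = 0.582).

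*Srxn1* had the widest interval of the 10 genes, and its difference was close in size to that of *Nfe2l2*. Its expression was 21.9, 24.7 and 36.3 CPM in CIE rats and 18.5, 21.0 and 31.7 CPM in Control rats. All 6 CIE rats were above the Control median, CIE rat 2 was the highest of all, and Control rat 10 was above 5 of the 6 CIE rats. Its log2 fold change was 0.24 (SE 0.15, 95% interval -0.08 to 0.56, edgeR FDR = 0.721, exact permutation p = 0.197). Without Control rat 10 it was 0.37 and passed nominal p (edgeR FDR = 0.295), and without CIE rat 2 it was 0.14 (edgeR FDR = 0.889).

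*Nqo1*, a quinone reductase, and *Hmox1*, the inducible heme oxygenase, are 2 of the most used indicators of Nrf2 activity. *Nqo1* was 7.64, 9.11 and 11.4 CPM in CIE rats and 8.001, 10.1 and 11.7 CPM in Control rats, a log2 fold change of -0.08 (SE 0.12, 95% interval -0.34 to 0.18, edgeR FDR = 0.909, exact permutation p = 0.511). Only 2 of the 6 CIE rats were above the Control median. *Hmox1* was 3.09, 4.20 and 4.59 CPM in CIE rats and 3.42, 3.73 and 4.56 CPM in Control rats. Its log2 fold change was 0.04 (SE 0.13, 95% interval -0.24 to 0.32, edgeR FDR = 0.961, exact permutation p = 0.729), with a coefficient of variation of 13.9% in each group. The intervals of both genes were wider than those of *Keap1*, *Gclc*, *Gclm* and *Txnrd1*.

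The superoxide dismutases convert superoxide to hydrogen peroxide in the cytosol (*Sod1*) and in mitochondria (*Sod2*). *Sod1* was 121, 136 and 198 CPM in CIE rats and 146, 164 and 182 CPM in Control rats. In CIE, 5 of the 6 rats were below every Control rat, whereas CIE rat 3 was above every Control rat. The mean was 144 ± 27.5 CPM in CIE and 164 ± 11.95 CPM in Control (SD, n = 6 each), a log2 fold change of -0.19 (SE 0.11, 95% interval -0.41 to 0.04, edgeR FDR = 0.698, exact permutation p = 0.132). Without CIE rat 3, chosen after its value was seen, the log2 fold change was -0.30 and passed nominal p but not 5% FDR (edgeR FDR = 0.0983), and the groups did not overlap (CIE 121 to 145 CPM). CIE rat 3 also had the lowest summed level of 10 myelinating oligodendrocyte markers (5718 CPM, against 6692 to 16399 CPM in the other rats). With a score of these markers as a covariate, the *Sod1* log2 fold change was -0.35 and passed nominal p (edgeR FDR = 0.383). These markers also differed between the groups, and their part in the *Sod1* value of CIE rat 3 was not tested.

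*Sod2* was 131, 140 and 165 CPM in CIE rats and 141, 152 and 170 CPM in Control rats. Below every Control rat were 3 CIE rats (1, 2 and 4), and 2 were above the Control median. Between the groups, *Sod2* differed by -0.10 on the log2 scale (SE 0.07, 95% interval -0.26 to 0.06, edgeR FDR = 0.796, exact permutation p = 0.201). The ratio of *Sod2* to *Sod1* counts was 1.01 in CIE and 0.942 in Control as geometric means, a difference of 0.10 on the log2 scale (SE 0.10, exact permutation test, two-sided, p = 0.314, adjusted p = 0.314). The CIE ratios ranged from 0.794 to 1.20, and enclosed the Control range of 0.881 to 1.06.

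**Figure D2:**
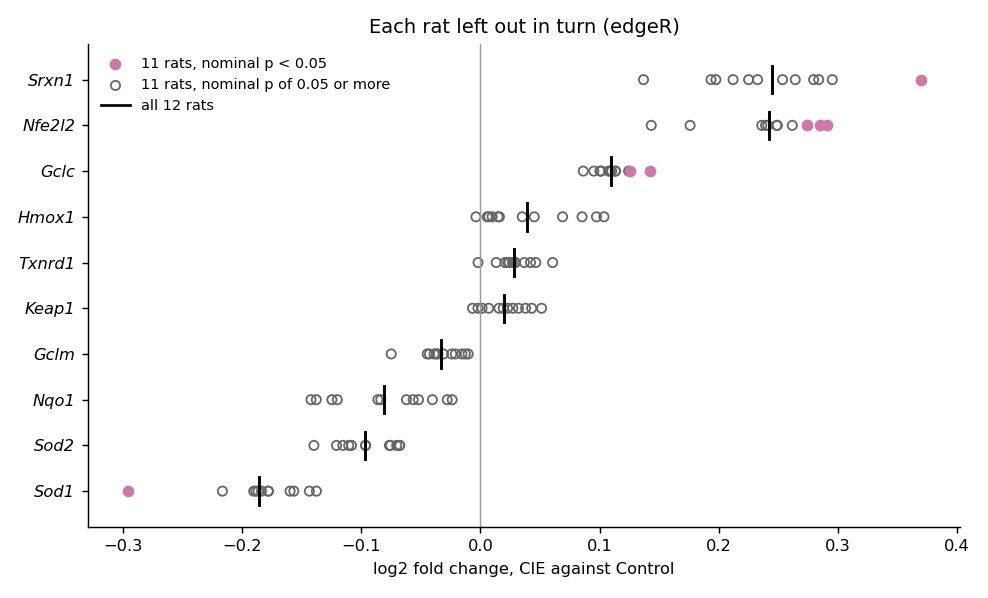
Log2 fold change of CIE against Control (x axis) for each of the 10 genes with each rat left out in turn (12 circles per gene, filled where edgeR's nominal p was below 0.05) and with all 12 rats (black bar). *Srxn1*, *Nfe2l2*, *Gclc* and *Sod1* passed nominal p without certain rats, with the lowest value for *Sod1* at -0.30 without CIE rat 3, while *Keap1*, *Hmox1* and *Txnrd1* crossed zero.

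Marker levels of other cell types moved between the groups and are given beside these values. The 10 myelinating oligodendrocyte markers summed to 5718 to 13866 CPM in CIE and to 8759 to 16399 CPM in Control, and 9 of the 10 were lower in CIE at nominal p (4.31% of all genes were). All 8 erythroid markers were lower, with sums of 134 to 430 CPM in CIE and 553 to 1016 CPM in Control. Of the other lists, 5 of 9 endothelial, 1 of 8 astrocyte and 1 of 8 microglial markers were lower at nominal p. For neuronal and CeA neuron markers these counts were 0 of 8 and 3 of 8. Higher at nominal p were 1 endothelial and 2 astrocyte markers. The endothelial sums were 223 to 288 CPM in CIE and 242 to 303 CPM in Control. No marker was at 0 in all rats, and the CeA neuron markers summed to 486 to 1562 CPM in CIE and 620 to 1963 CPM in Control. CIE rat 6, the highest rat for *Nfe2l2*, had the lowest CeA neuron sum of any rat. It also had the highest astrocyte sum (2876 CPM, against 2290 to 2673 CPM) and the lowest neuronal sum (3181 CPM, against 3398 to 3847 CPM). Among CIE rats, its oligodendrocyte, endothelial and microglial sums were the highest as well (13866, 288 and 349 CPM). The part of these levels in its *Nfe2l2* value was not tested. In bulk tissue, fewer cells of a type and less RNA per cell cannot be told apart. With the oligodendrocyte marker score as a covariate, 2 of the 10 genes passed nominal p, beside 10.8% of all genes, *Sod1* as given above and *Nfe2l2* at a log2 fold change of 0.35 (edgeR FDR = 0.425).

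Whether the mRNA of the factor varied together with the other 9 genes across rats was asked from log2 CPM over all 12 rats. No correlation passed an adjusted p below 0.05 over the 9 genes. For *Sod2*, the gene with the coefficient farthest from zero, Pearson's r was -0.36 (permutation p = 0.257, adjusted p = 0.924) and Spearman's rho was -0.57 (permutation p = 0.0592, adjusted p = 0.468). Without the 2 rats farthest from the *Nfe2l2* median (CIE rat 6 and Control rat 7) r was -0.57, and within groups it was -0.27 in CIE (exact permutation p = 0.654) and -0.08 in Control (exact permutation p = 0.886). *Srxn1* had r = 0.29 (permutation p = 0.360, adjusted p = 0.924) and rho = 0.50 (permutation p = 0.104, adjusted p = 0.468), and r was 0.56 without the 2 farthest rats. Within groups its r was 0.10 in CIE (exact permutation p = 0.843) and 0.09 in Control (exact permutation p = 0.864). Within Control, the coefficients farthest from zero were those of *Sod1* (r = 0.83, exact permutation p = 0.0667, and -0.44 within CIE, p = 0.321) and *Txnrd1* (r = 0.82, exact permutation p = 0.0125, and -0.15 within CIE, p = 0.769). Within CIE, they were those of *Gclm* (r = 0.70, exact permutation p = 0.176, and -0.29 within Control, p = 0.490) and *Keap1* (r = -0.62, exact permutation p = 0.174, and 0.01 within Control, p = 0.982). These were picked from the 9 genes in each group and are not adjusted. Over all tested genes, the patterns most like *Nfe2l2* across the 12 rats were those of *Rp2* (r = 0.88), LOC100910892 (r = 0.87) and *Herc6* (r = 0.86), given as a description. These were 0.85, 0.83 and 0.78 without CIE rat 6.

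The wider pathway was described with 86 further genes in 7 lists, of which 84 had a row and 79 were tested. The lists were chosen with earlier results of these data known, which limits what their shares of called genes can show. At nominal p, 12 of the 79 (15.2%, beside 8.31% of all genes) differed, 7 higher and 5 lower in CIE, and none passed 5% FDR in edgeR. DESeq2 called 14 at nominal p (7.48% of 29389 genes) and 2 at 5% FDR (*Slc40a1* and *Gsta3*, 1.41% of 20852 genes). With limma-voom, 22 were called at nominal p (17.2% of all genes) and 2 at 5% FDR (*Slc40a1* and *Idh1*, 1.12% of all genes). The median log2 fold change was 0.01. *Bach2* and *Pgd* were not analysed here, *Fth1*, *Abcc1*, *Ugt1a6* and *Gsta1* were listed at 0 in all rats, and *Gsta2* had at most 5 counts. Ferritin heavy chain (*Fth1*) is used by every cell, so a 0 in this table may come from the counting or the annotation and does not show absence of expression.

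**Figure D3:**
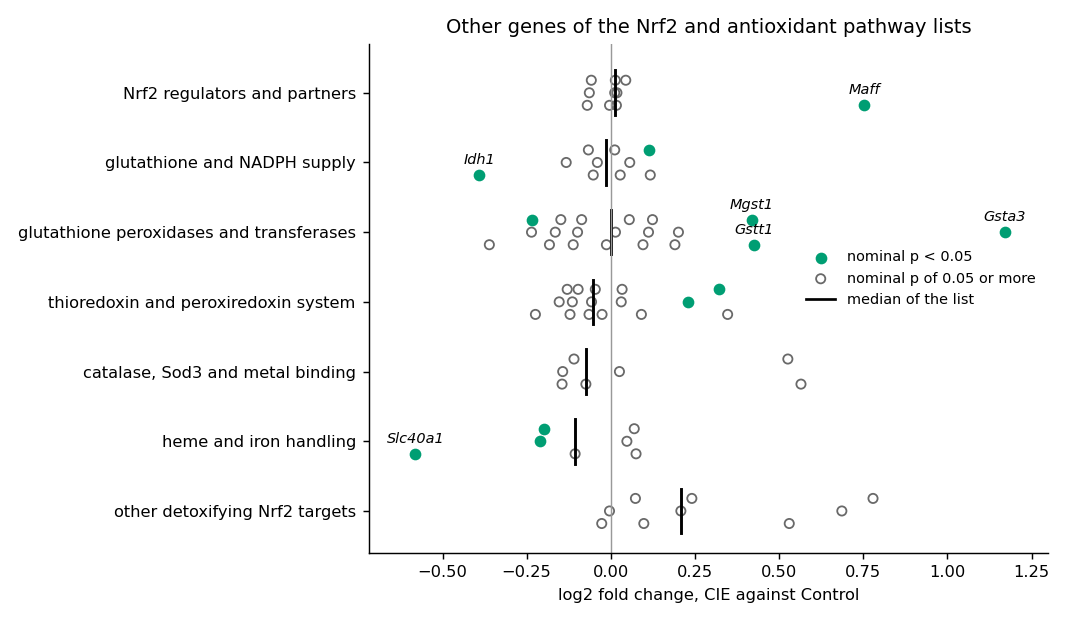
Log2 fold change of CIE against Control (x axis) of the 79 tested genes in the 7 pathway lists (rows), 1 circle per gene, filled where edgeR's nominal p was below 0.05, with the median of each list as a black bar. The list medians lie between -0.11 and 0.21, and the filled genes farthest from zero are *Gsta3* (1.17) and *Maff* (0.75) above it and *Slc40a1* (-0.58) below it.

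Of the 10 Nrf2 regulators and partners tested, 1 passed nominal p (10%, beside 8.31% of all genes). *Maff*, a small Maf protein that forms heterodimers with Nrf2, was 0.556, 0.849 and 1.41 CPM in CIE rats and 0.284, 0.585 and 0.677 CPM in Control rats. All CIE rats except rat 3 were above every Control rat, CIE rat 1 by a narrow margin. The log2 fold change was 0.75 (SE 0.28, edgeR FDR = 0.450), and it was 0.58 and lost the nominal call without CIE rat 6, the rat that was also highest for *Nfe2l2*. Counts of *Maff* were between 11 and 114 per rat. With the oligodendrocyte score as a covariate, the *Maff* log2 fold change was 1.01 and passed nominal p (edgeR FDR = 0.319).

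In the list for glutathione and NADPH supply, 1 gene was higher and 1 lower at nominal p of 10 tested (20%, beside 8.31% of all genes). Log2 fold changes in the list were positive for 5 genes and negative for 5. *Idh1*, the cytosolic isocitrate dehydrogenase that yields NADPH, was 32.6, 36.8 and 46.3 CPM in CIE rats and 36.7, 48.6 and 61.4 CPM in Control rats. Every CIE rat was below the Control median and 3 were below all Control rats, a log2 fold change of -0.39 (SE 0.11, edgeR FDR = 0.261). With the oligodendrocyte score as a covariate it was -0.32 and no longer passed nominal p (edgeR FDR = 0.471). *Slc3a2*, the heavy chain shared by the cystine and other amino acid transporters, had a log2 fold change of 0.11 (SE 0.05, edgeR FDR = 0.595). When single rats were left out, it passed nominal p only without CIE rat 2, CIE rat 4 or Control rat 10. *Slc3a2* was 0.13 with the oligodendrocyte score as a covariate and did not pass nominal p (edgeR FDR = 0.527).

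Glutathione peroxidases and transferases use glutathione to reduce peroxides or to conjugate electrophiles. At nominal p, 3 of 20 were higher and 1 lower, and log2 fold changes were positive for 10 genes and negative for 10. *Gsta3*, an alpha class transferase, had groups that did not overlap, which 0.893% of all genes had. It was 0.374, 0.457 and 0.831 CPM in CIE rats and 0.115, 0.244 and 0.346 CPM in Control rats. It was the largest difference of all 79 genes, with a log2 fold change of 1.17 (SE 0.31, edgeR FDR = 0.187), at only 8 to 54 counts per rat. Reads of the alpha class genes may be shared among near-identical copies, so this value is uncertain. The theta class transferase *Gstt1* (0.42, SE 0.16, edgeR FDR = 0.475) and the microsomal transferase *Mgst1* (0.42, SE 0.19, edgeR FDR = 0.596) were also higher, and *Gpx8*, a peroxidase of the endoplasmic reticulum, was lower (-0.23, SE 0.09, edgeR FDR = 0.475). The call of *Mgst1* was kept only without CIE rat 1, Control rat 8 or Control rat 11, and those of *Gstt1* and *Gpx8* were kept without any single rat. With the oligodendrocyte score as a covariate, *Gstt1* was 0.38 and *Gpx8* -0.22, close to the values without it, but neither passed nominal p. In that fit *Gsta3* was 1.22 (edgeR FDR = 0.312) and *Mgst1* was 0.65 (edgeR FDR = 0.417), and both passed nominal p.

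Of 16 thioredoxin and peroxiredoxin genes, 2 were higher at nominal p and none lower. *Sesn1*, a sestrin linked to peroxiredoxin repair, was 58.0 to 71.1 CPM in CIE and 45.1 to 63.0 CPM in Control (medians 66.5 and 55.5). All 6 CIE rats were above the Control median, with a log2 fold change of 0.23 (SE 0.08, edgeR FDR = 0.436), and of 0.11 without a nominal call (edgeR FDR = 0.730) with the oligodendrocyte score as a covariate. *Txnrd3*, a thioredoxin and glutathione reductase related to *Txnrd1*, had a log2 fold change of 0.32 (SE 0.14, edgeR FDR = 0.565). That call was lost without each of CIE rats 1, 3, 5 and 6 and Control rats 9, 10 and 12. The call was kept with the oligodendrocyte score as a covariate, at 0.41 (edgeR FDR = 0.452).

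Heme and iron handling had 3 of 7 genes lower at nominal p, beside 4.31% of all genes, and none higher at nominal p. Log2 fold changes in the list were positive for 3 genes and negative for 4. *Slc40a1*, ferroportin, the only known iron exporter of mammalian cells, was 2.75, 3.10 and 3.90 CPM in CIE rats and 3.81, 4.67 and 5.68 CPM in Control rats. Below every Control rat were 5 of the 6 CIE rats, all but rat 3. Its log2 fold change was -0.58 (SE 0.12, edgeR FDR = 0.0758), which ranked first among the 79 genes. Its FDR was 0.00126 with DESeq2, 0.0414 with limma-voom and 0.0294 without CIE rat 3, and with the oligodendrocyte score as a covariate the log2 fold change was -0.62 and passed nominal p (edgeR FDR = 0.227). Erythroid markers were also lower in every CIE rat than in any Control rat, and their part in the *Slc40a1* value was not tested.

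The other 2 genes of that list with a nominal p below 0.05 were *Ftl1*, ferritin light chain, with a log2 fold change of -0.20 (SE 0.08, edgeR FDR = 0.542), and *Slc48a1*, a heme transporter, with -0.21 (SE 0.09, edgeR FDR = 0.554). With the oligodendrocyte score as a covariate they were -0.16 (edgeR FDR = 0.634) and 0.01 (edgeR FDR = 0.980), without a nominal call. The *Ftl1* call was lost without each of CIE rats 1, 4 and 6 and Control rats 8 to 11, and the *Slc48a1* call without each of CIE rats 1 to 4 and Control rats 8 to 11. Reads of *Ftl1* may be shared with near-identical copies.

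In the remaining lists, no gene passed nominal p in edgeR with all rats and no covariate. Among 7 genes for catalase, *Sod3* and metal binding, the smallest p was that of the metallothionein *Mt2A* (log2 fold change 0.56, SE 0.37, edgeR FDR = 0.751). It was 0.96 and passed nominal p (edgeR FDR = 0.289) without Control rat 10, which had 1.03 CPM against 0.187 to 0.481 CPM in the other Control rats. Among 9 other detoxifying targets, 7 had positive and 2 negative log2 fold changes, with a median of 0.21, and the smallest p was that of *Osgin1*, an oxidative stress induced growth inhibitor (0.69, SE 0.35, edgeR FDR = 0.638). It passed nominal p at 1.02 (edgeR FDR = 0.230) without Control rat 10 and at 0.79 (edgeR FDR = 0.746) without CIE rat 1, and was 0.42 (edgeR FDR = 0.847) without CIE rat 2, the highest rat. Control rat 10 was thus the rat whose removal raised *Srxn1*, *Gclc*, *Mt2A* and *Osgin1* past nominal p. Each of the 4 was highest in this rat among Control rats. With all rats kept, limma-voom called *Mt2A* (0.90, FDR = 0.165) and *Osgin1* (0.84, FDR = 0.176) at nominal p. DESeq2 called *Osgin1* (0.70, FDR = 0.481) but not *Mt2A* (0.58, FDR = 0.711).

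**Figure D4:**
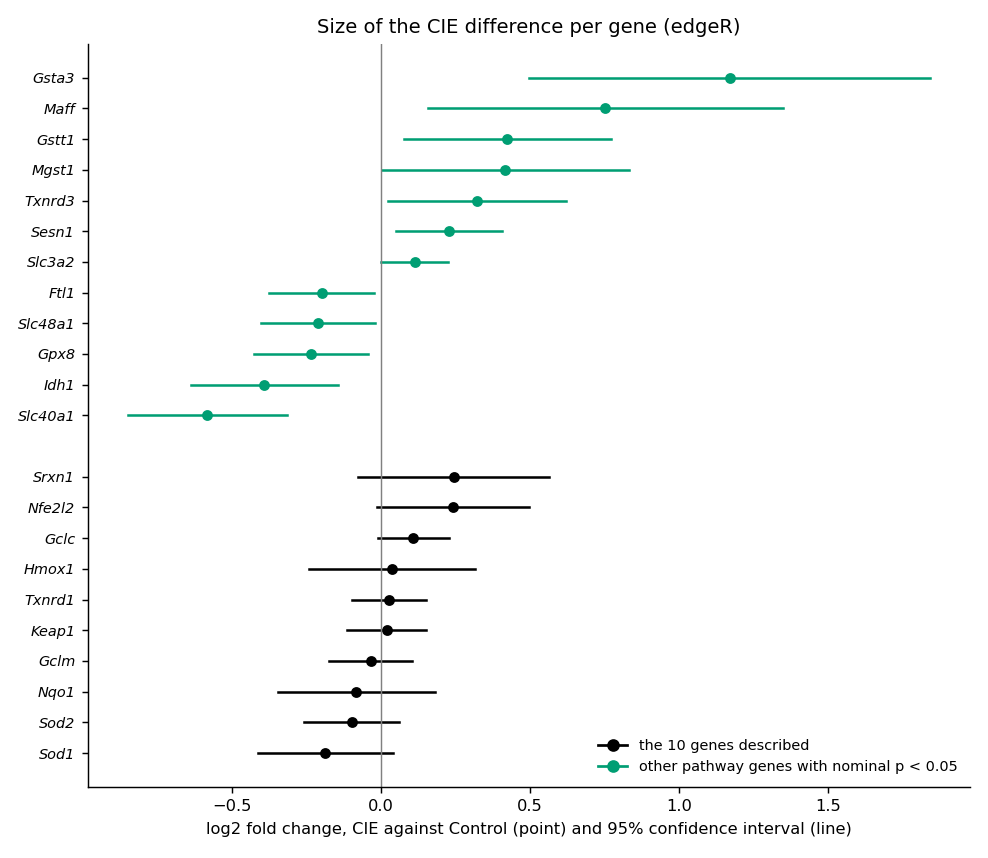
Log2 fold change of CIE against Control (points, x axis) with 95% confidence intervals (lines) from edgeR, for the 10 genes (black) and the 12 other pathway genes with nominal p below 0.05 (green). Every black interval includes zero, from *Sod1* at -0.19 to *Srxn1* at 0.24, and the green intervals whose near end lies farthest from zero are those of *Gsta3* and *Slc40a1*.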

How the data were processed

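Poly-A enriched RNA from CeA punches of 12 rats was sequenced as paired reads. The authors mapped reads to Rnor_6.0 with BWA and deposited raw counts per gene from HTSeq, with no filter; the gene annotation and the strand and overlap settings are not given in the sources used here. The table also holds 37209 rows with no gene name, which carry no counts. Without known strand, reads of overlapping genes cannot be told apart.

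The software was edgeR 4.0.16, sva 3.50.0, DESeq2 1.42.0 and limma 3.58.1 (R 4.3.3), and scipy 1.17.1, matplotlib 3.10.9, pandas 2.3.3 and numpy 2.4.6 (Python 3.11.15). CIE and Control were compared on the whole table by the quasi-likelihood F test of edgeR (TMM, filterByExpr, no covariates, two-sided, 20944 genes), and FDR is Benjamini-Hochberg adjusted over these genes. The authors used DESeq2, which was an alternative here. CPM values are TMM-normalized, and log2 CPM used a prior count of 2. SE was taken as the size of the log2 fold change over the square root of its F statistic. Between rats of one group, squared differences were 8.13 to 34.9 times what Poisson sampling gives (median over genes), so no library was counted as a repeat of another. Total counts averaged 68.3 M per rat. Ratios of counts and single values were compared by exact permutation, and correlations with 100000 permutations.

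The alternatives were DESeq2 size factors, library size only, no filter, a minimum of 10 counts in every rat, DESeq2, an oligodendrocyte marker score or 1 surrogate variable as covariate, limma-voom with sample quality weights, and leaving out each of the 12 rats. The script was tested on simulated data. Sequences are from RefSeq on GRCr8, matched by symbol, and no coordinates of Rnor_6.0 were used. The genes, pathway lists and markers were chosen with earlier results of these data known. Named are the 10 genes, every pathway gene with a nominal p below 0.05, the gene of smallest p in a list with none, and the 3 genes most correlated with *Nfe2l2*.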

Additional observations from a re-analysis of the deposited data

Results flagged for a closer look

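In 54 groups of 6 rats, the highest or lowest rat was compared with the other 5, and 5 groups had a rat that stood apart by Dixon's 95% criterion (a gap above 0.625 of the group's range). Chance gives about 1 in 20 groups. *Nfe2l2* was 24.7 CPM in CIE rat 6, against 15.3 to 18.7 CPM in the other CIE rats. *Sod1* was 198 CPM in CIE rat 3, against 121 to 145 CPM in the other CIE rats. *Osgin1* was 4.75 CPM in CIE rat 2, against 1.66 to 2.57 CPM. In Control, *Slc3a2* was 85.5 CPM in rat 7, against 92.0 to 95.7 CPM, and *Mt2A* was 1.03 CPM in rat 10, against 0.187 to 0.481 CPM.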

How the results depend on the processing

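The 10 genes gave 0 calls at 5% FDR under all 20 alternatives. At nominal p the count of 0 (8.31% of all genes) became 1 with DESeq2 size factors (8.37%), 1 with library size only (8.39%), 1 with DESeq2 (7.48%), 2 with the oligodendrocyte score (10.8%) and 4 with limma-voom (17.2%), and lay between 0 and 2 when single rats were left out (2 without Control rat 10, 11.4%). The 12 pathway genes called at nominal p became 22 with limma-voom (17.2% of all genes), and between 7 (without Control rat 9, 6.38%) and 15 (without CIE rat 3, 13.3%) with single rats left out. Of 200 values for the 10 genes, 177 kept direction and side of the threshold, 16 passed it and 7 changed sign. The sign changes were *Keap1* at -0.0080 with the oligodendrocyte score, -0.0021 without CIE rat 3 and -0.0067 without CIE rat 5 (highest 0.051 without Control rat 10), *Hmox1* at -0.0038 without CIE rat 5 (highest 0.104 without CIE rat 1), *Gclm* at 0.00052 with limma-voom, and *Txnrd1* at -0.050 with the oligodendrocyte score and -0.0021 without CIE rat 3 (highest 0.061 without CIE rat 1). Of 279 values for the named pathway genes, 219 kept side and direction, 6 passed and 53 lost the threshold, and *Slc48a1* changed sign to 0.0093 with the oligodendrocyte score. The cause was not tested. With single rats left out, the log2 difference of the ratio of *Gclm* to *Gclc* was -0.19 to -0.10, of *Keap1* to *Nfe2l2* -0.29 to -0.11 and of *Sod2* to *Sod1* 0.05 to 0.17, and the correlations with *Nfe2l2* gave 0 calls. No paired analysis was possible because the 2 groups share no rat numbers.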

Other observations

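*Srxn1*, *Osgin1* and *Mt2A* shared their highest rats in both groups, a pattern noticed in the values and not tested. In CIE rat 2 they were 36.3, 4.75 and 1.05 CPM, the highest of all 12 rats for each, and in Control rat 10 they were 31.7, 3.27 and 1.03 CPM, the highest of the Control rats for each. Among the 73 pathway genes with a RefSeq promoter window, 20 held the ARE core TGACNNNGC and 43 the looser TGANNNNGC. Over all genes, 12.1% and 40.5% of windows did. The pathway counts are by gene, with a match in any window, so they are not in the same unit as these shares.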
